A study of Bos taurus with 21 samples.

Results

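The comparison described here sets the endometrium of 5 pregnant heifers against that of 5 cyclic heifers on day 13 after oestrus, so 10 of the 20 heifers and 10 of the 21 libraries in the series. The members were chosen by their labels alone: pregnant heifers 2, 9, 11, 14 and 20, and cyclic heifers 5, 8, 10, 13 and 18. All were cross-bred beef heifers, mainly Charolais and Limousin crosses, brought into oestrus together by a vaginal progesterone device and an injected analogue of prostaglandin F2α. Cyclic heifers were not inseminated. Pregnant heifers had been inseminated and were kept only if a conceptus of the proper stage was flushed from the uterine horn next to the corpus luteum. The tissue was a strip of that horn after flushing, predominantly intercaruncular, that is, from between the sites where the placenta attaches. The labels give no age, no conceptus length and no hormone concentration. Each day 13 library carries a heifer number of its own, so the replicates are separate animals by their labels.

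The endometrium lines the uterus and consists of luminal and glandular epithelium, stroma, vessels and immune cells. Under progesterone from the corpus luteum it prepares the uterine fluid on which the free-living conceptus feeds before it attaches. Around day 13 the bovine conceptus turns from an ovoid into an elongating form, and its trophectoderm begins to release interferon tau, the signal that later keeps the corpus luteum in place. The comparison asks whether a conceptus at that stage already goes with a different endometrium, before the mother recognises the pregnancy.

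Total counts ran from 1677742 in pregnant heifer 2 to 3764342 in pregnant heifer 9, with means of 2560081 ± 255748 (SD, n = 5) in cyclic and 2579162 ± 751574 (n = 5) in pregnant heifers. A floor of 3 counts corresponded to 0.806 CPM (the count scaled to a common library total) in the deepest and 1.81 CPM in the shallowest library. Between 17764 and 18792 transcripts had at least 1 count in a heifer. No 2 libraries were alike within sampling noise, since the lowest chi-square per degree of freedom among 45 pairs was 3.30. The files hold Ensembl bovine transcript identifiers without gene symbols, and a search of the reference gene table found 0 of them. Values are therefore given for transcripts, and the tissue could not be checked against marker genes. Because the samples are pieces of whole tissue, fewer cells of a type and less RNA per cell cannot be told apart.

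No transcript passed the test between pregnant and cyclic heifers in edgeR. Of 14168 transcripts tested, 0% were called at a Benjamini-Hochberg adjusted p under 0.05, and the smallest adjusted p was 0.638. At an unadjusted p under 0.05 there were 720 transcripts, 5.08% of those tested, with 413 of them (2.92%) higher and 307 (2.17%) lower in pregnant heifers. For 83 transcripts, 0.586% of those tested, the 5 pregnant heifers did not overlap the 5 cyclic ones, with 44 higher (0.311%) and 39 lower (0.275%) in pregnancy. Estimated differences were small for most transcripts. The median absolute log2 fold change was 0.16, the central 95% of estimates lay between -0.49 and 0.57, and 66 transcripts had an estimate of 2-fold or more, 45 of them higher and 21 lower in pregnancy. These estimates carry the error described below and are not established as changes.

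The result depended on the tool for 5 transcripts. DESeq2, fitted to the same 10 heifers, called 5, while limma voom called 0 with 736 transcripts at an unadjusted p under 0.05, and voom with sample quality weights called 0 with 705. Of the 5, 4 were the transcripts that had the smallest edgeR p-values of their direction at 10 CPM or more, 2 higher and 2 lower. The 2 higher ones lay within 0.355 log2 units of each other in every heifer, so they may not be separate candidates. The 2 lower ones had their highest correlation, 0.964, with each other, so they too may not be separate candidates. When each heifer was left out in turn, DESeq2 called between 0 and 14 transcripts. It called 0 without cyclic heifer 8, 1 without pregnant heifer 14, which was not among the 5, and 14 without pregnant heifer 11, among them all 5. With all 20 heifers in the DESeq2 model 3 were called, 2 of them among the 5.

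These transcripts show what the strongest candidates looked like. ENSBTAT00000008216 was at 18.1, 14.5, 22.1, 19.5 and 15.4 CPM in cyclic heifers 5, 8, 10, 13 and 18, and at 30.7, 43.0, 26.2, 40.9 and 30.3 CPM in pregnant heifers 2, 9, 11, 14 and 20. All pregnant heifers were above all cyclic ones, and heifers 9 and 14 stood highest. The difference was 0.94 log2 units (SE 0.19, 95% interval 0.54 to 1.34, edgeR adjusted p = 0.638, DESeq2 adjusted p = 0.0407).

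ENSBTAT00000004177 had 21.7, 13.1, 17.1, 18.4 and 19.5 CPM in the cyclic heifers and 33.7, 45.7, 25.8, 48.6 and 27.8 CPM in the pregnant ones, in the same order. The groups were again apart, with the 2 highest values in heifers 14 and 9. The difference was 1.02 log2 units (SE 0.21, 95% interval 0.57 to 1.47, edgeR adjusted p = 0.638, DESeq2 adjusted p = 0.0407).

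ENSBTAT00000052229 had the smallest p-value of all and lay in the other direction. It was at 24.5, 37.4, 29.5, 23.2 and 19.8 CPM in cyclic heifers and at 12.04, 7.79, 14.1, 8.50 and 12.9 CPM in pregnant heifers. Heifers 9 and 14 were the lowest of all 10. The difference was -1.29 log2 units (SE 0.23, 95% interval -1.78 to -0.81, edgeR unadjusted p = 4.57e-05 and adjusted p = 0.638, DESeq2 adjusted p = 0.00548).

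ENSBTAT00000028457 was at 37.8, 49.1, 49.8, 33.4 and 29.6 CPM in cyclic and at 13.8, 11.3, 26.6, 14.6 and 20.8 CPM in pregnant heifers. The gap between the groups was narrow, from 26.6 CPM in pregnant heifer 11 to 29.6 CPM in cyclic heifer 18. The difference was -1.20 log2 units (SE 0.24, 95% interval -1.70 to -0.69, edgeR adjusted p = 0.638, DESeq2 adjusted p = 0.0195). The fifth DESeq2 call, ENSBTAT00000045610, was named after its values were seen. It averaged 11.4 CPM in cyclic and 33.2 CPM in pregnant heifers, 1.52 log2 units apart (SE 0.34), with an adjusted p of 0.816 in edgeR and 0.0407 in DESeq2.

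The 4 transcripts named by rule also varied along the main axis of variation between heifers, described below, on which heifers 9 and 14 shared 1 end. That axis held 43.2% and 62.3% of the variance of ENSBTAT00000008216 and ENSBTAT00000004177, and 48.0% and 36.9% of that of ENSBTAT00000052229 and ENSBTAT00000028457. With the axis score in the edgeR model their log2 fold changes were 0.76, 0.74, -1.06 and -1.01, with adjusted p of 0.833, 0.410, 0.301 and 0.833. Without heifers 9 and 14, a choice made after the data were seen, they were 0.69, 0.68, -1.03 and -0.94. With a token from the file names, described below, in the model they were 0.89, 1.01, -1.32 and -1.29.

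**Figure D1:**
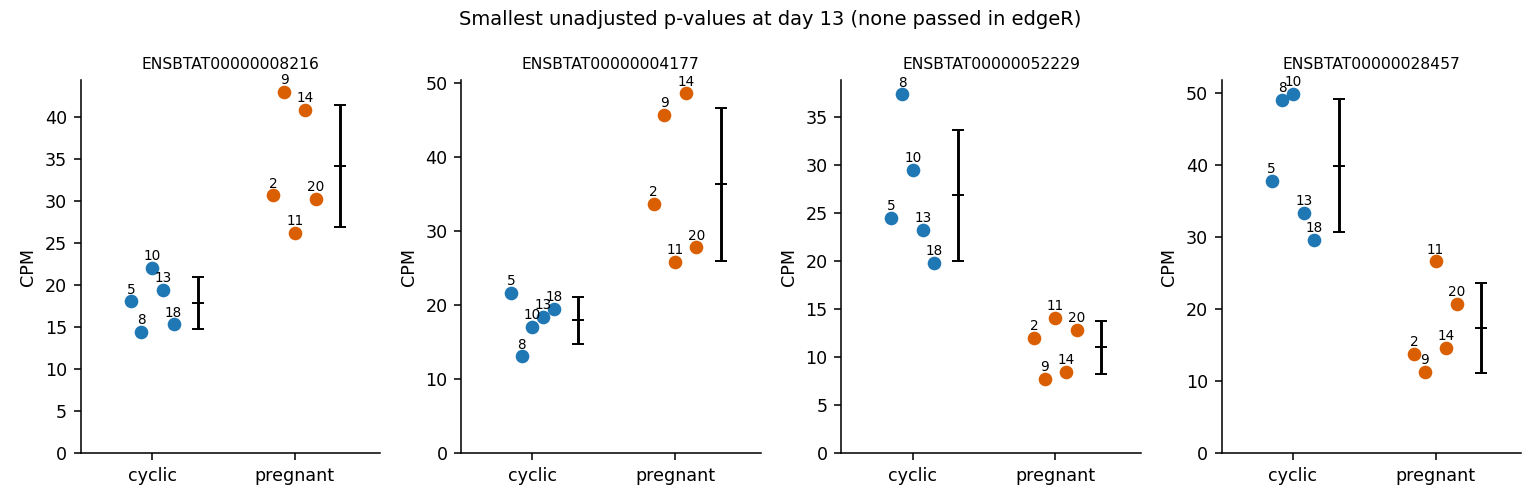
CPM (vertical axis, from 0) of the 4 transcripts with the smallest p-values per direction at day 13, with 1 point per heifer, labelled by heifer number, and the mean ± SD of each group (n = 5) beside the points. The groups do not overlap in any of the 4, pregnant heifers 9 and 14 hold the extreme pregnant values in the first 3, and none passed in edgeR (adjusted p = 0.638 for each).

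The size of effect that these heifers exclude depended on abundance. For each transcript the 95% interval of the fold change was taken from the edgeR fit, and a change was counted as excluded where the whole interval lay inside it in both directions. A change of 4-fold or more was excluded for 14090 of 14168 transcripts (99.4%), a change of 2-fold or more for 12394 (87.5%), and a change of 1.5-fold or more for 6441 (45.5%). The median interval reached 0.43 log2 units to either side of the estimate, a factor of 1.34.

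Below 5 CPM, where a heifer had a median of 11.1 counts, the median transcript excluded changes over 2.08-fold. Of these 534 transcripts, 96.6% excluded 4-fold, 40.4% excluded 2-fold and none excluded 1.5-fold. Their median interval was a factor of 1.69 to either side. Between 5 and 10 CPM, 1222 of 1895 transcripts (64.5%) excluded 2-fold and 5.12% excluded 1.5-fold.

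From 10 to 30 CPM the share excluding 2-fold was 87.9% of 4338 transcripts, and from 30 to 100 CPM it was 96.5% of 4921. The share then stayed level, at 96.8% of 1993 transcripts from 100 to 300 CPM, 95.8% of 431 from 300 to 1000 CPM and 96.4% of 56 at 1000 CPM and over. The share excluding 1.5-fold went on rising with abundance, from 33.9% at 10 to 30 CPM and 61.8% at 30 to 100 CPM to 72.5%, 79.6% and 80.4% in the 3 highest classes.

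Counting error made up much of the interval at low abundance and little of it at high abundance. Below 5 CPM the median half-width was 0.76 log2 units, against 0.54 from counting error alone. At 30 to 100 CPM it was 0.37 against 0.16, at 300 to 1000 CPM 0.32 against 0.05, and at 1000 CPM and over 0.35 against 0.03. The interval thus stopped narrowing from 100 CPM while counting error went on falling. The edgeR biological coefficient of variation was 21.9%.

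These limits hold for each transcript by itself. With intervals that hold over all 14168 transcripts at once (Bonferroni), a 4-fold change was excluded for 10030 transcripts (70.8%), a 2-fold change for 840 (5.93%) and a 1.5-fold change for 1. The 4-fold share under that criterion was 0.936% below 5 CPM, 66.9% at 10 to 30 CPM and 91.6% at 30 to 100 CPM. By an equivalence test (2 one-sided tests, Benjamini-Hochberg adjusted), 12980 transcripts (91.6%) differed by less than 2-fold and 6049 (42.7%) by less than 1.5-fold. The interval left room for rises slightly more often than for falls, since a 2-fold rise was excluded for 92.7% and a 2-fold fall for 94.3% of transcripts.

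The 78 transcripts for which even a 4-fold change was not excluded were found at all levels but the highest. Below 10 CPM there were 38 of them, 20 lay between 10 and 30 CPM, 15 between 30 and 100 CPM and 5 between 100 and 1000 CPM.

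**Figure D2:**
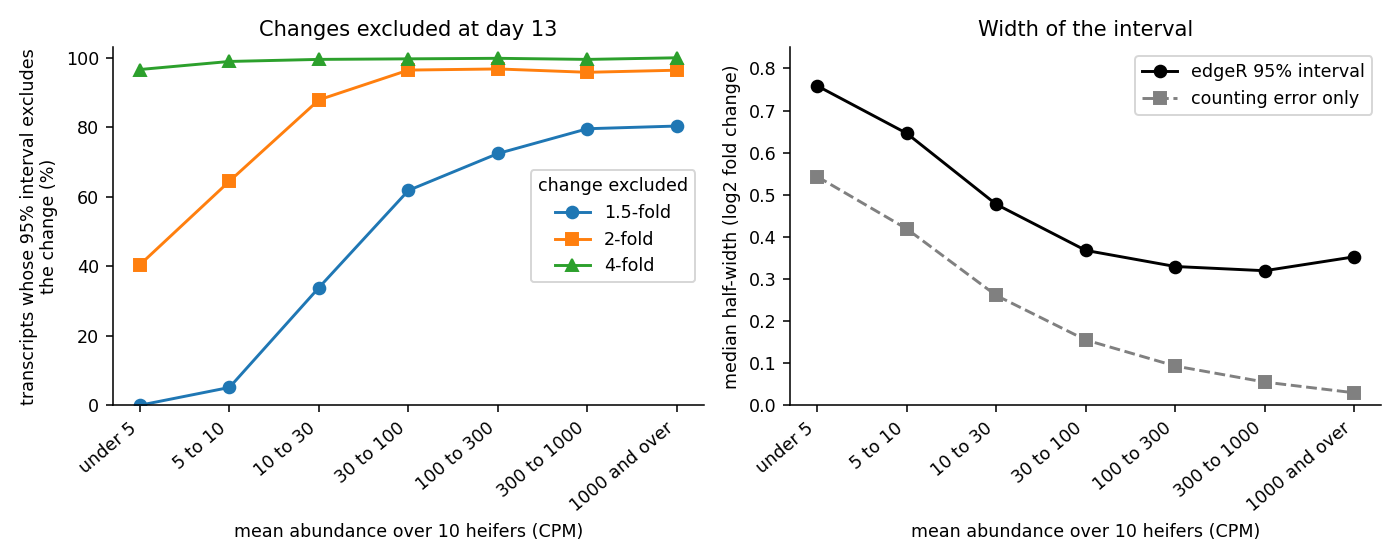
Left, the share of transcripts (%) whose 95% edgeR interval excludes a 1.5-, 2- or 4-fold change between pregnant and cyclic heifers at day 13, by mean CPM over the 10 heifers. Right, the median half-width of that interval (log2 fold change) and the part that counting error alone would give. The 2-fold share levels off near 96% from 30 CPM, while counting error falls towards 0 and the interval does not.

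The limits can be set against the response seen later. On day 16, 2 libraries are labelled heifer 12 and were summed, but whether both come from that heifer is in doubt. Between these libraries chi-square per degree of freedom reached 6.85, while library 2 and the library of heifer 19 were the closest of 210 pairs, at 2.001. The edgeR fit over all 20 heifers called 141 transcripts as higher in pregnant than in cyclic heifers on day 16, and 132 of them were tested here on day 13, in heifers that entered that fit only through its filter, scaling and shared spread. These 132 had a median log2 fold change of 1.74 on day 16 and of 0.05 on day 13, against 0.005 on day 13 over all tested. On day 13, 78 of them were higher in pregnant heifers, 9 (6.82%, against 5.08% of all tested) had an unadjusted p under 0.05, and 0 were called. The groups did not overlap for 2 of the 132, against 83 of all 14168 tested (0.586%). A 2-fold change on day 13 was excluded for 87 of the 132 (65.9%, against 87.5% of all tested) and a 4-fold change for 128 (97.0%). Their median SE was 0.27, against 0.20 over all tested. For 130 of the 132 the upper end of the day 13 interval lay below the estimate for day 16. With library 1 or library 2 alone for heifer 12, 138 or 130 transcripts were called as higher, 137 and 129 of them among the 141. A 2-fold change on day 13 was then excluded for 66.7% or 64.5% of those tested. The day 16 estimates chose these transcripts and are given as a description.

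The spread between heifers was somewhat larger in the pregnant group, by a difference that did not pass a permutation test. The distance between 2 heifers was the root mean square difference of log2 CPM over the 11739 transcripts that averaged 10 CPM or more. It averaged 0.48 within the cyclic group (0.40 to 0.58 over 10 pairs) and 0.52 within the pregnant group (0.38 to 0.64 over 10 pairs), a difference of 0.0363 (exact two-sided permutation test, p = 0.595, smallest possible 0.00794). Pairs of 1 cyclic and 1 pregnant heifer averaged 0.50 (0.39 to 0.77 over 25 pairs), which was 0.003 more than the mean of both within-group values (exact one-sided permutation p = 0.333). The mean distance between the groups thus lay between the means within each of them. With all 20 heifers scaled together the mean distance was 0.45 within the cyclic and 0.44 within the pregnant day 16 group.

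By abundance, the pregnant group had the larger median SD in every class but the highest. At 30 to 100 CPM the median SD of log2 CPM was 0.24 in cyclic and 0.29 in pregnant heifers, and 64.6% of transcripts varied more in pregnant heifers. At 1000 CPM and over it was 0.28 in cyclic and 0.27 in pregnant heifers, and below 5 CPM it was 0.46 and 0.48. Counting error alone would give 0.43 below 5 CPM, but that value leaves out the prior count of 2 in log2 CPM. The prior count lowers SDs at low counts, so the group SDs and the counting SD are not on the same scale there. Over all tested transcripts 531 had an SD more than 3-fold larger in the pregnant and 223 more than 3-fold larger in the cyclic group. Fitted to each group alone, the common biological coefficient of variation was 20.6% in cyclic and 23.1% in pregnant heifers.

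Pregnant heifers 14 and 9 had the largest part in the spread of their group. They held 26.9% and 23.0% of the pregnant group's sum of squares and were the heifer farthest from the group mean for 30.1% and 27.7% of transcripts. Without heifer 14 the difference in mean distance was 0.00509, and without both it was -0.0824, with the cyclic group now the more variable (exact permutation p = 0.929 and 0.125). In the cyclic group heifers 5, 10 and 8 held 24.9%, 24.4% and 21.6% of the sum of squares and heifer 13 held 12.4%. Without heifer 13 the difference in mean distance was 0.00532 (exact permutation p = 0.952). Removing the main axis from every transcript took the median SD from 0.25 to 0.20 in cyclic and from 0.30 to 0.19 in pregnant heifers. It turned the difference in mean distance to -0.0327 (exact permutation p = 0.468). The axis was fitted to these same heifers and held 46.6% of the pregnant and 25.2% of the cyclic within-group variance. Its removal thus lowered the pregnant spread more by construction.

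Single heifers were often closer to the other group than to their own. Pregnant heifers 2, 11 and 20 lay at a mean distance of 0.45, 0.44 and 0.44 from the cyclic heifers and 0.51, 0.49 and 0.48 from the other pregnant ones, and cyclic heifer 5 lay at 0.46 from the pregnant and 0.51 from the cyclic heifers. Yet the single nearest heifer was of the same group for 8 of 10 (exact one-sided permutation p = 0.0635, a count made after the distances were seen). Pregnant heifers 11 and 20 were the closest pair of all, at 0.38, and pregnant heifers 9 and 14 were each other's nearest, at 0.45. The farthest pair was cyclic heifer 8 and pregnant heifer 14, at 0.77.

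**Figure D3:**
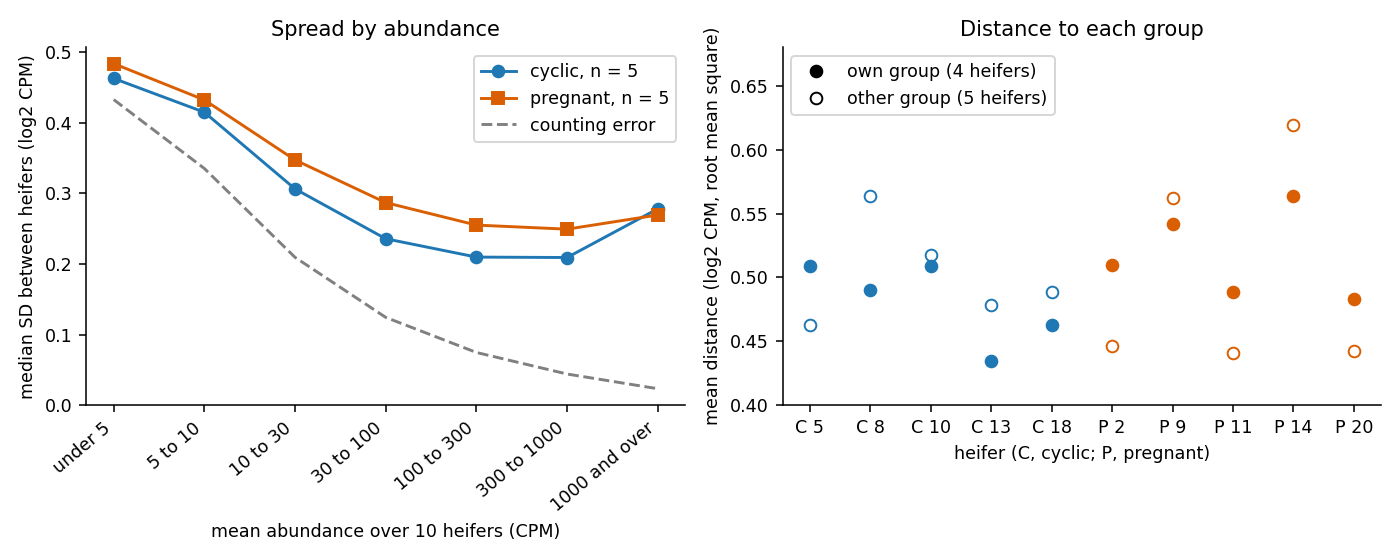
Left, the median SD of log2 CPM between the 5 heifers of each group, by mean CPM, with the SD from counting error alone. The counting SD leaves out the prior count of 2 in log2 CPM, so its scale differs at low counts. Right, each heifer's mean distance (root mean square difference of log2 CPM) to its own group and to the other group, on an axis that starts at 0.40. The pregnant line lies above the cyclic one except at 1000 CPM and over, and heifers C 5, P 2, P 11 and P 20 are nearer to the other group.

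The main axis of variation cut across the pregnancy labels. The first principal component of the 10 heifers held 38.2% of the variance of log2 CPM, the second 13.8%, the third 10.7% and the fourth 8.62%. The difference between the group means held 12.3% of the variance, and each of the 9 degrees of freedom among 10 heifers would hold 11.1% if all were equal. Scores on the first component, with the sign set so that the heifer farthest out is positive, were 43.9, 33.5, -7.50, -11.3 and -13.6 in pregnant heifers 14, 9, 20, 11 and 2. In cyclic heifers 5, 18, 10, 13 and 8 they were 16.5, -2.25, -10.0, -14.5 and -34.7.

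The positive end thus held 2 pregnant heifers and 1 cyclic heifer, the negative end was a cyclic heifer, and the remaining 6 heifers of both groups lay between -14.5 and -2.25. The mean score was 9.003 ± 27.5 (SD, n = 5) in pregnant and -9.003 ± 18.6 (n = 5) in cyclic heifers, a difference of 18.01 that was smaller than the SD of either group (exact two-sided permutation p = 0.270, adjusted p = 0.540 over 4 components). That difference was 8.49 without heifer 14 and 11.2 without heifer 8. Nor did the other 3 components pass, with exact permutation p of 0.841, 0.238 and 0.651. Pregnancy held 15.5% of the score variance of the first component, 0.930% of that of the second, 16.96% of that of the third and 2.43% of that of the fourth.

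The axis was spread over many transcripts. It held over 50% of the variance of 4658 of 11739 transcripts (39.7%) and over 80% of that of 1255, of which 462 were higher and 793 lower towards heifer 14. The 100 largest loadings made up 7.82% of the axis and the 1000 largest 34.6%. Along the whole length from heifer 8 to heifer 14 the fitted change was 2-fold or more upward for 853 transcripts (7.27%) and downward for 1021 (8.70%), and 4-fold or more for 30 and 18. The transcripts that lay on the axis for over 80% had a median mean level of 69.9 CPM, against 42.5 CPM over all 11739. These counts describe the heifers that defined the axis and are not tests.

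Small pregnancy effects were excluded less often for transcripts that lay on the axis. Of the 2935 transcripts with the largest share of variance on it, 41.5% excluded a 1.5-fold pregnancy effect, against 61.1% of the 2935 with the smallest share, although the median SE was 0.19 in both. For 2-fold the shares were 95.8% and 90.9%, with a median mean level of 58.1 and 34.1 CPM.

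The 2 transcripts with the largest loadings of each sign show the pattern in CPM. ENSBTAT00000019573 had 298 CPM in pregnant heifer 14, and 48.9, 24.1, 20.5 and 19.4 CPM in pregnant heifers 9, 20, 2 and 11. In cyclic heifers 18, 5, 13, 10 and 8 it had 90.6, 78.3, 22.5, 18.5 and 8.88 CPM. Both groups thus held high and low heifers, and 2 cyclic heifers without a conceptus were above 4 of the 5 pregnant ones.

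The same transcript was called for pregnancy on day 16, at 5.75 log2 units (edgeR over 20 heifers, adjusted p = 0.00106). There it ran from 412 to 931 CPM (median 501) in pregnant and from 7.97 to 14.3 CPM (median 12.6) in cyclic heifers. On that scale heifer 14 on day 13 had 300.5 CPM, below every pregnant day 16 heifer and above every other heifer of the 10. Its day 13 interval for pregnancy was wide, from -1.26 to 3.08 log2 units around 0.91 (edgeR adjusted p = 0.832).

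ENSBTAT00000048100, the other leading positive loading, was at 266 CPM in heifer 14 and at 88.8, 74.6 and 40.4 CPM in cyclic heifers 5, 13 and 18, 41.1 CPM in pregnant heifer 20 and 25.6 CPM in cyclic heifer 10. It was at 11.3 CPM in pregnant heifer 9, 6.54 CPM in cyclic heifer 8, and 3.01 and 2.82 CPM in pregnant heifers 2 and 11. Heifer 9 was low here although it stood second on the axis, and only 30.0% of the variance of this transcript lay on it. On day 16 its medians were 12.8 CPM in pregnant and 10.1 CPM in cyclic heifers, with an edgeR adjusted p of 0.969.

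At the negative end, ENSBTAT00000044112 was highest in cyclic heifer 8 at 296 CPM. It had 147, 145, 126, 115 and 115 CPM in pregnant heifer 2, cyclic heifer 13, pregnant heifer 20, cyclic heifer 10 and pregnant heifer 11. The lowest values were 46.1 and 42.6 CPM in cyclic heifers 18 and 5, and 41.3 and 33.0 CPM in pregnant heifers 14 and 9. The axis held 80.8% of its variance. The pregnant heifers all lay inside the range of the cyclic ones but for heifers 14 and 9, which were lower.

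ENSBTAT00000039476 had 25.2 CPM in cyclic heifer 8 and 1.61 CPM in cyclic heifer 5, the highest and the lowest of the 10 in 1 group. The pregnant heifers lay from 4.05 CPM in heifer 14 to 15.8 CPM in heifer 20. Another identifier followed this transcript within 0.24 log2 units in every heifer, so reads of both may come from related sequences. For these 3 transcripts the edgeR adjusted p for pregnancy at day 13 was 0.925, 0.850 and 0.932.

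**Figure D4:**
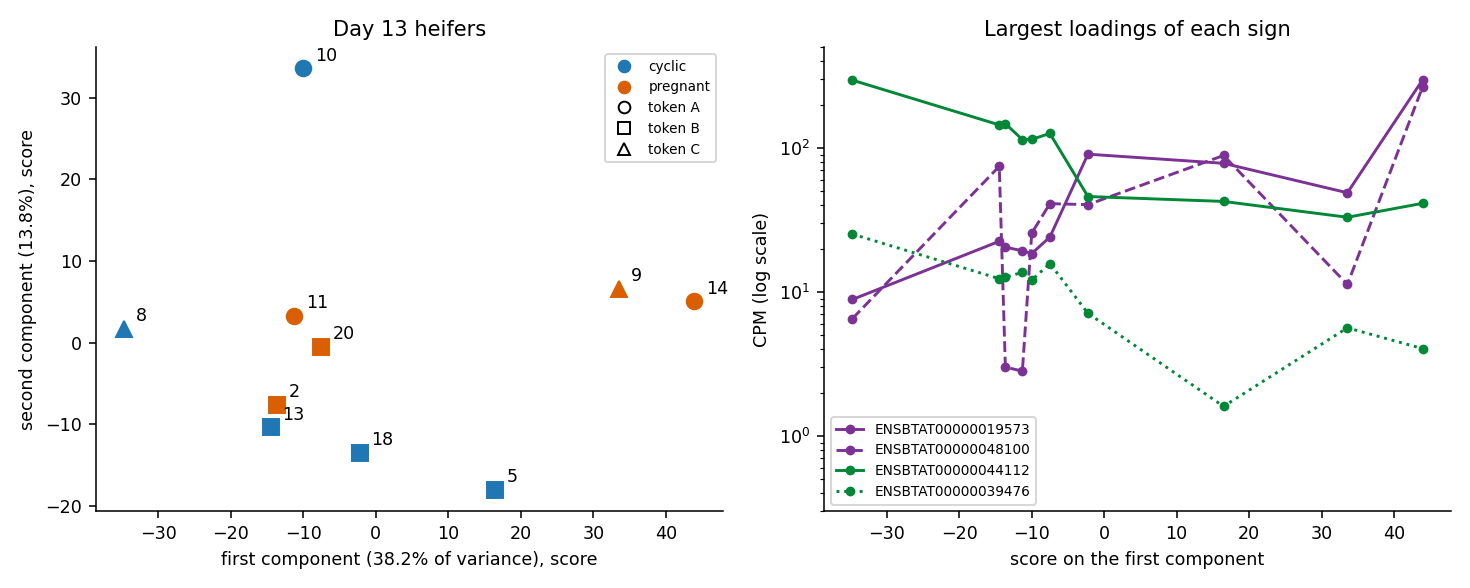
Left, scores of the 10 day 13 heifers on the first (38.2% of variance) and second (13.8%) principal components, coloured by group, shaped by file-name token and labelled by heifer number. Right, CPM on a log axis of the 2 transcripts with the largest positive and the 2 with the largest negative loadings against the first score, 1 point per heifer. Pregnant and cyclic heifers are mixed along the first component, heifer 10 stands alone on the second at 33.6, and ENSBTAT00000044112 falls along the first component from 296 to 41.3 CPM.

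The axis was checked in heifers that had not defined it. When it was built from the other 9, the score of the heifer left out kept its sign in all 10, from 36.2 in pregnant heifer 14 and 27.7 in pregnant heifer 9 to -31.4 in cyclic heifer 8. The sign of each of these axes was set to follow the full axis. Their loadings had Pearson correlations with the full axis between 0.931, without heifer 14, and 1.000, without heifer 18. Each such axis shares its 9 heifers with the full axis, so high correlations follow largely from that overlap and are not a separate check. Scores built from the odd-numbered and the even-numbered transcripts had a Pearson correlation of 1.000 across the 10 heifers, which share their libraries.

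An axis built from 1 group alone placed the same heifers of the other group at its positive end as the full axis did. Its sign was set to follow the full axis, which all 10 heifers defined. At the negative end cyclic heifer 8 was again lowest, while pregnant heifer 11 took the place of heifer 2. The first component of the 5 pregnant heifers placed cyclic heifer 5 at 18.5 and cyclic heifer 8 at -20.1, with heifers 18, 10 and 13 between at 4.63, 2.02 and -5.03. The first component of the 5 cyclic heifers placed pregnant heifers 14 and 9 at 18.9 and 11.4, and heifers 20, 2 and 11 at -8.98, -9.18 and -12.2. The loadings of both, which share no library, had a Pearson correlation of 0.475 across 11739 transcripts (Spearman 0.533), which are not independent replicates. The axis from the other group held 14.5% of the variance among the cyclic heifers and 12.4% of that among the pregnant ones, against 41.4% and 53.6% for the group's own first component.

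On day 16 the heifers were less spread along the day 13 axis. Their scores ran from -13.9 to 19.4 (SD 11.6, n = 10), while day 13 heifers placed on axes built without them ran from -31.4 to 36.2 (SD 20.6, n = 10). Pregnant day 16 heifers 19, 6, 4, 12 and 1 scored 17.7, 7.74, 0.867, -1.66 and -13.9. Cyclic day 16 heifers 3, 15, 17, 7 and 16 scored 19.4, 18.7, 3.90, -5.51 and -5.70.

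Pregnant and cyclic heifers overlapped on this axis on day 16 too. The means were 2.15 ± 11.7 (SD, n = 5) and 6.15 ± 12.4 (n = 5), a difference of -3.99 (exact two-sided permutation p = 0.603). The 2 libraries labelled heifer 12 were summed, and with library 1 or library 2 alone the difference was -5.18 or -2.88. This depended on the transcripts used: with an axis built from the 500 most variable transcripts the day 16 difference was 12.4 (exact permutation p = 0.00794, the smallest possible). The day 13 axis held 13.0% of the variance within cyclic and 11.8% of that within pregnant day 16 heifers. The day 16 heifers' own first component, its sign set to follow the day 13 axis, held 30.8% of their variance. On it the groups did not overlap, at 3.93 to 29.3 in cyclic and -34.8 to -0.279 in pregnant heifers. Its loadings had a Pearson correlation of 0.370 with those of the day 13 axis (Spearman 0.620) across 11739 transcripts, which are not independent replicates.

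The level of the day 16 response set was set against the day 13 axis. The mean log2 CPM of its 132 tested transcripts was 5.88 in pregnant heifer 14, and 5.10, 5.02, 5.01 and 4.96 in pregnant heifers 20, 9, 11 and 2. It was 5.59, 5.48, 5.13, 4.87 and 4.66 in cyclic heifers 18, 5, 13, 8 and 10. Heifer 14 was highest and was followed by 2 cyclic heifers. The Pearson correlation with the first score over the 10 heifers did not pass after adjustment, at 0.647 (permutation p = 0.0434, adjusted p = 0.173 over 4 relations), and the Spearman correlation was 0.624 (permutation p = 0.0609, adjusted 0.244). The relation depended on which heifers were kept. Pearson's r was 0.378 without heifer 14 and 0.272 without heifers 14 and 8, the ends of the axis. It was 0.657 without heifers 14 and 9, which lay farthest from the median score, 0.829 without heifer 9 alone, and 0.621 with the axis built without the set. Of the 117 members at 10 CPM or more, 81 (69.2%) had a positive loading, against 50.7% of all 11739 transcripts.

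**Figure D5:**
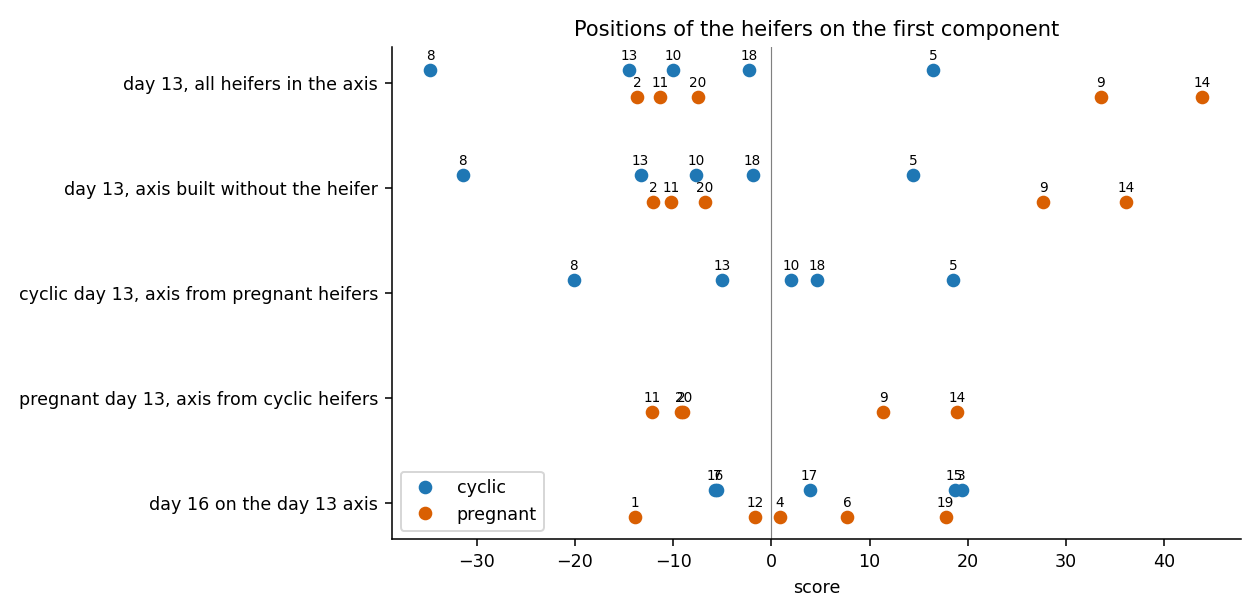
Scores on the first day 13 component (horizontal axis), 1 labelled point per heifer, for 5 ways of building or using the axis, from all 10 heifers at the top to the 10 day 16 heifers at the bottom. Heifers 14 and 9 stay at the positive side and heifer 8 at the negative side when they are left out, and the day 16 heifers lie between -13.9 and 19.4.

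Measures of the libraries were set beside the axis. Over the 10 heifers the first score had a Pearson correlation of 0.574 with total count (permutation p = 0.0863, adjusted p = 0.259 over 3 relations), and a Spearman correlation of 0.503 (permutation p = 0.144, adjusted 0.431). The Pearson correlation was 0.385 without the 2 heifers of most extreme depth. With the number of transcripts detected it was 0.386 (permutation p = 0.280, adjusted 0.421, Spearman 0.176) and turned to -0.18 without 2 heifers. With the share of counts in the 10 most abundant transcripts it was -0.25 (permutation p = 0.490, adjusted 0.490, Spearman -0.36). In a single random thinning of every library to 1677742 counts the first component held 36.2% of the variance, with a pregnant minus cyclic difference of 18.4. Thinning evens out total counts only, and whether the axis comes from the libraries or from the heifers was not tested.

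The file names carry a token that takes 3 values in these heifers, called A, B and C here, and the labels do not say what it stands for. Each value held both groups. The token held 5.04% of the variance of the first score and 59.5% of that of the second. Under token C cyclic heifer 8 and pregnant heifer 9 lay at -34.7 and 33.5, close to both ends of the axis. Taken token by token, pregnant heifers scored 26.3 more than cyclic ones under A, with 2 pregnant heifers and 1 cyclic. The difference was -10.5 among the 5 heifers under B and 68.3 between the pair under C, so its sign was not the same under every token. The second component was led by cyclic heifer 10, under token A, at 33.6 against -18.1 to 6.55 in the other 9.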

How the data were processed

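Endometrial RNA of 20 heifers was sequenced as single reads on an Illumina instrument, per the labels' protocols. The deposited values are raw read counts per Ensembl bovine transcript, 28054 identifiers in each file. The submitters' processing notes list CASAVA. Aligner, counter, build, annotation and strand use were not given in the sources used here, so transcripts that overlap or resemble others are uncertain (67 tested transcripts had the counts of another in every heifer). From these counts, the 10 day 13 heifers alone were fitted, so that the spread comes from them: filterByExpr (minimum count 10, minimum total 15), trimmed mean of M values (TMM) factors and the robust quasi-likelihood test of edgeR 4.0.16 in R 4.3.3, with Benjamini-Hochberg adjusted p under 0.05 as the call. SEs come from the fold change and F statistic and are unstable for the transcripts within 0.001 of 0. Log2 CPM used a prior count of 2. Components and distances used transcripts averaging 10 CPM or more, centred and not scaled. Day 16 heifers were scaled together with day 13, with the 2 libraries labelled heifer 12 summed. DESeq2 1.42.0 and limma 3.58.1 were alternatives. Transcripts named were the first 2 per direction by p that reached 10 CPM on average in the higher group, and the first 2 loadings of each sign. The comparison, lists and rules were chosen with earlier results of these data known. Lists of cell type markers and pathway genes were not tested, since no identifier has a symbol. The labels do not say whether RNA of a heifer was extracted once, and name no molecular identifiers, so floors and counting widths cover counting error only.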

Additional observations from a re-analysis of the deposited data

Results flagged for a closer look

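Of 36 groups of 5 values examined, 3 had a heifer far from the other 4, each time pregnant day 13 heifer 14. Chance alone would mark about 1 group in 20 for normally distributed values picked beforehand, a rate that does not hold here. Both transcripts below were picked by their loadings on the axis on which heifer 14 scored highest. Its outlying values in them thus follow in part from that choice. The 3 are related and are not 3 separate findings. Heifer 14 had 297.5 CPM of ENSBTAT00000019573, against 19.4 to 48.9 CPM in the other pregnant heifers, and 265.6 CPM of ENSBTAT00000048100, against 2.82 to 41.1 CPM. Its mean log2 CPM over the 132 transcripts of the day 16 response was 5.88, against 4.96 to 5.10. In cyclic heifers 18 and 5 that mean was 5.59 and 5.48.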

How the results depend on the processing

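The count of 0 calls was the same under 20 of 21 alternatives, leaving out each heifer included (0 in all 10 fits), and was 5 in DESeq2. The unadjusted count was 720, and 379 without pregnant heifer 14, 405 without cyclic heifer 8 and 1223 without cyclic heifer 5. The share of transcripts excluding a 2-fold change, 87.5%, was 60.8% with no filter and 95.7% with a minimum count of 50, since these change which transcripts are tested. It was 86.0% with all 20 heifers, 86.1% with the file-name token, 86.9% in DESeq2, 86.6% in limma voom, 89.2% with quality weights, 5.93% with simultaneous intervals and 91.6% by the equivalence test. It ranged from 82.2% to 87.4% with 1 heifer left out, and was 82.8% without heifers 9 and 14 and 86.4% without heifers 8 and 14. The first component held 38.2% of the variance, and 33.3% with all transcripts that passed the filter, 45.0% at 100 CPM or more, 26.6% with the 500 most variable, 32.1% to 42.7% with 1 heifer left out, 27.1% without heifers 9 and 14 and 29.5% without 8 and 14. The pregnant minus cyclic difference in spread turned from 0.0363 to -0.0327 with the first component removed and to -0.0824 without heifers 9 and 14, and ranged from 0.00509 to 0.0593 with 1 heifer left out. The difference in score, 18.01, was -1.09 without heifers 9 and 14 and 8.49 to 24.3 with 1 left out. On day 16 the difference of -3.99 turned to 12.4 with the 500 most variable transcripts and to 3.12 without heifers 9 and 14, and ranged from -6.29 to -0.61 with 1 day 13 heifer left out. The correlation with transcripts detected turned to -0.18 without 2 heifers. The causes of these turns were not tested. The day 16 set's correlation with the axis, 0.647, ranged from 0.378 to 0.829 with 1 heifer left out. Alternatives without 2 heifers, that range, the thinning, the single libraries of heifer 12 for the day 16 set and the correlations without the farthest heifers were chosen after seeing the data. No paired analysis was possible because no heifer number is shared between groups. Depth limits the result below about 10 CPM.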
